A study of Mus musculus with 4 samples.

Results

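The miR-30 family is a group of microRNAs that share 1 seed, the stretch of bases by which a microRNA finds its targets. Its members were taken by name from the scanner files as mmu-miR-30a, mmu-miR-30b, mmu-miR-30c, mmu-miR-30d and mmu-miR-30e (the species prefix mmu, for mouse, is left out from here on), and all 5 were found among the 577 microRNA names with a probe on the array. The cells were A3-1, an embryonic stem cell line of the mouse, grown in medium with serum and the cytokine LIF, which holds stem cells in the undifferentiated state. The control group had received an siRNA against GFP (siGFP) and the other group an siRNA against Lin28a (siLin28a), both 48 h before total RNA was taken. Each group had 2 replicates on 1 single-colour (Cy3) array each, and nothing states that they came from separate cultures, so every p-value here reflects the scatter of these 4 samples, which may be no more than technical. All 4 arrays lay on 1 slide, where positions 1 and 2 held replicate 1 of siGFP and siLin28a, and positions 3 and 4 held replicate 2. Lin28a mRNA is not measured by a microRNA array, so how far it was knocked down is unknown here.

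A microRNA is cut from a hairpin in a longer transcript, and 1 arm of the hairpin is loaded into an Argonaute protein, where its seed pairs with target mRNAs and lowers their output. miR-30 members are known for holding back Snai1 and with it the epithelial-to-mesenchymal transition, and the LIN28A mRNA is a reported target of the family. LIN28A in turn is an RNA-binding protein that blocks the maturation of let-7 precursors by binding their terminal loops, where its zinc knuckles favour the letters GGAG. Setting siLin28a against siGFP asks how the loss of LIN28A changes mature microRNAs in these cells.

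The mature sequences are shown because they fix the seed and show how little separates the members that an array has to tell apart. Of the 5 members, 3 were matched in the RefSeq table (build GRCm38.p6), and miR-384-5p, the other name in that table with the same seed, was on the array too. The seed, bases 2 to 8, is in capitals.
miR-30a: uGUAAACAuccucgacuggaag
miR-30c: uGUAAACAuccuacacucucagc
miR-30e: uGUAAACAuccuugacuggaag
miR-384-5p: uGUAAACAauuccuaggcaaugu
Counted from the 5′ end, miR-30a and miR-30e were identical at 21 of 22 bases and differed by C13U (miR-30a base first). miR-30a and miR-30c were identical at 17 of 22 bases, with the first difference, C13A, at the same position. How much of a signal came from a near-identical member was not tested.

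Hairpins are shown because the loop is where LIN28A binds let-7 precursors. Each is printed 5′ to 3′ on its own strand in GRCm38.p6, with every GGAG in capitals, and the letters were searched on the RNA strand only, with no other motif searched.
Mir30a (chr1:23272269-23272339, plus strand): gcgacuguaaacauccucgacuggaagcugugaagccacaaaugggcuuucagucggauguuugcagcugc
Mir30c-2 (chr1:23291701-23291784, plus strand): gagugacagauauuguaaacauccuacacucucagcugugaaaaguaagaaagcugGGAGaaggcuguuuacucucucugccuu
Mir30c-1 (chr4:120769534-120769622, minus strand): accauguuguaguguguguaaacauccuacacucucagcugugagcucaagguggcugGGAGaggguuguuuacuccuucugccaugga
Mir30e (chr4:120772606-120772697, minus strand): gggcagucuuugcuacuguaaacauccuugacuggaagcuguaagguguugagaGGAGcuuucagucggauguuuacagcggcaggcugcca
GGAG lay between the 2 arms in the Mir30e hairpin, inside the 3′ arm in both Mir30c hairpins, and nowhere in the Mir30a hairpin. The RefSeq table held no hairpin sequence for Mir30b or Mir30d, so neither was searched. Over the RefSeq table, 44.5% of 1005 hairpins held GGAG somewhere, and 8.07% of the 644 hairpins with both arms placed held it between the arms. In the gene table, Mir30a neighboured Mir30c-2, Mir30b neighboured Mir30d, and Mir30c-1 and Mir30e both lay within the span of Nfyc, the protein-coding gene of a subunit of the transcription factor NF-Y. Mature miR-30c can come from either Mir30c hairpin, so its signal is the sum over 2 loci.

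The arrays carried 11540 non-control spots each, of which between 32.5% and 38.8% were well above background and 0 were saturated. The siLin28a arrays were brighter, and the number of arrays limits the precision. The cell label was checked on markers. All 7 microRNAs of the miR-290 cluster chosen as embryonic stem cell markers were detected, with summed total signals of 59569 to 59887 for siGFP and 66139 to 68591 for siLin28a. Of 8 fibroblast or feeder cell markers, 4 were detected on no array (miR-10a, miR-10b, miR-145 and miR-199a-5p). Another 3 (miR-21, miR-31 and miR-143) were bright enough in at least 1 group to be tested. The summed signal of the 8 was 313 to 375 for siGFP and 389 to 418 for siLin28a. Of 4 neural markers, miR-9 was detected on no array, and the other 3 (miR-124, miR-128 and miR-219) were bright enough to be tested. The sums were 209 to 255 and 244 to 330. Of 5 markers of primed pluripotent cells, 4 (miR-302a to miR-302d) were detected on no array, and the sums were 10.5 to 27.6 and 20.0 to 42.9. Each of these sums is unscaled between arrays, and their part in the differences of the miR-30 members was not tested.

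Within the family, miR-30a and miR-30c had the largest differences between siLin28a and siGFP. Both have a hairpin on chromosome 1, and miR-30c has another on chromosome 4. The difference of miR-30e was small, and those of miR-30b and miR-30d lay close to 0. None passed the test across all microRNAs. The fold was 1.28 for miR-30a, 1.36 for miR-30c, 1.08 for miR-30e, 0.956 for miR-30b and 0.978 for miR-30d (n = 2 per group). Of the 5 members, 3 were higher on both siLin28a arrays than on both siGFP arrays (30.7% of the 231 tested microRNAs did the same), 0 were lower in that way (30.7% of those tested), and 2 overlapped. All 5 members were well above background on all 4 arrays in at least 1 probe, so none entered through 1 group alone. With limma, 0 of 5 had an adjusted p below 0.05, against 0.866% of tested microRNAs called higher and 0% called lower. At an unadjusted p below 0.05 there was 1 member, miR-30a, and 13.4% of all tested microRNAs were higher by that measure and 11.3% were lower. The median difference over the 5 members was 0.12 on the log2 scale, ranging from -0.066 to 0.45, beside a median of 0 over all 231 with quartiles of -0.21 and 0.24.

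**Figure D1:**
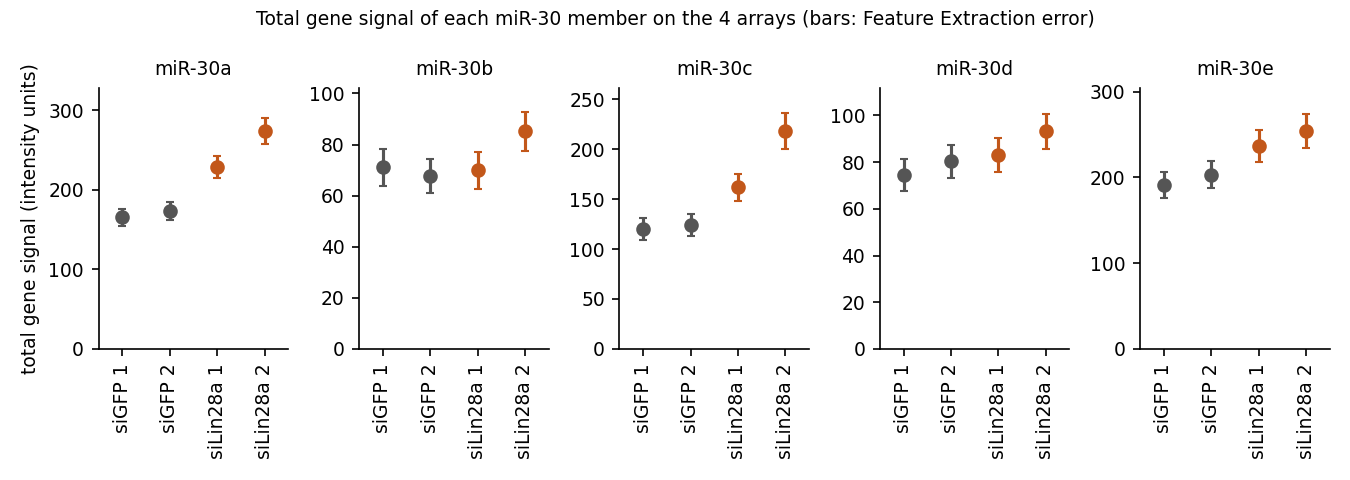
Total gene signal, in intensity units on a linear axis from 0, of each miR-30 member on the 2 siGFP and 2 siLin28a arrays, with the error that Feature Extraction gives for each array as bars; signals are not scaled between arrays. Both siLin28a points lie above both siGFP points for miR-30a, miR-30c, miR-30d and miR-30e, and for miR-30b the first siLin28a array (70.0) lies within the siGFP range of 67.6 to 71.0.

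miR-30a had total gene signals of 166 and 173 for siGFP against 229 and 274 for siLin28a. This signal is the sum that the scanner software makes over the probes of a microRNA, before any scaling between arrays. On the scaled log2 values, its levels were -0.99 and -0.95 for siGFP against -0.69 and -0.54 for siLin28a. Both siLin28a arrays were therefore higher before and after scaling, and the gap between groups was wider than the gap between replicates. The difference was 0.36 on the log2 scale (SE 0.098, 95% interval 0.071 to 0.64, limma adjusted p = 0.159, n = 2 per group), the 44th highest of 231. It was 0.18 with the scaling over all probes, 0.56 with no scaling and 0.14 with normexp. A scaled level is the log2 of the probe signal divided by the 75th percentile of its array, averaged over probes, so levels of different microRNAs rest on different probes and are not compared.

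miR-30c, the member made from 2 hairpins, had total gene signals of 120 and 124 for siGFP and 162 and 218 for siLin28a. Its scaled log2 levels were -1.71 and -1.67 against -1.42 and -1.07. The groups did not overlap, but the siLin28a replicates lay 0.35 apart, far more than the siGFP replicates at 0.045. The difference was 0.45 on the log2 scale (SE 0.17, 95% interval -0.038 to 0.93, limma adjusted p = 0.210, n = 2 per group). It was 0.27 without siLin28a replicate 2 and 0.63 without siLin28a replicate 1, and other ways of processing moved it as far or farther, to 0.27 with the scaling over all probes, 0.65 with no scaling and 0.063 with normexp. Its size is therefore not settled by these data.

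miR-30e, whose hairpin shares the Nfyc span with Mir30c-1, had total gene signals of 191 and 203 for siGFP and 237 and 254 for siLin28a. After scaling the levels were -0.86 and -0.77 against -0.70 and -0.69 on the log2 scale. The groups did not overlap, though the gap between the nearest arrays of the groups was smaller than the gap between the siGFP replicates. The log2 difference was 0.12 (SE 0.086, 95% interval -0.13 to 0.36, limma adjusted p = 0.402, n = 2 per group), and scaling over all probes gave -0.057 and the normexp background correction gave -0.0052.

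miR-30b and miR-30d have neighbouring hairpins on chromosome 15. miR-30b had total gene signals of 71.0 and 67.6 for siGFP and 70.0 and 85.3 for siLin28a, and scaled log2 levels of -1.47 and -1.62 against -1.65 and -1.56. miR-30d had total gene signals of 74.5 and 80.4 against 83.1 and 93.3, and scaled log2 levels of -2.09 and -2.02 against -2.12 and -2.06. After scaling, both members overlapped between the groups. The log2 difference was -0.066 for miR-30b (SE 0.13, 95% interval -0.43 to 0.30, limma adjusted p = 0.752, n = 2 per group). For miR-30d it was -0.032 (SE 0.11, 95% interval -0.36 to 0.29, limma adjusted p = 0.869, n = 2 per group). The intervals leave room for a change of either sign, and with no scaling between arrays both values were above 0, at 0.14 and 0.17.

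**Figure D2:**
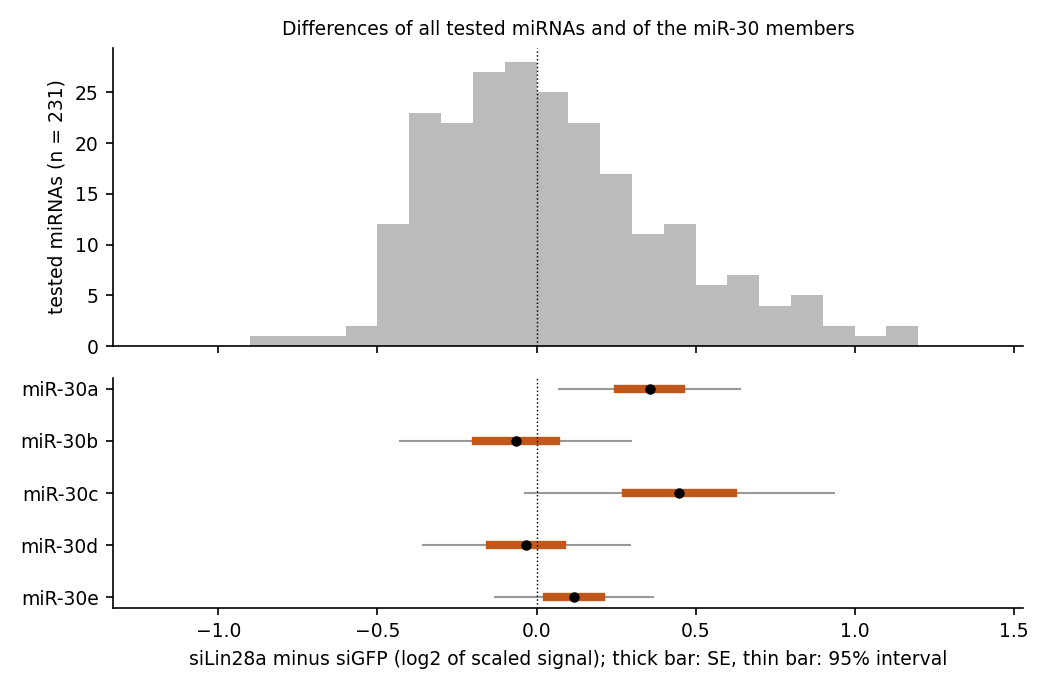
The upper panel counts the 231 tested microRNAs by their difference between siLin28a and siGFP on the log2 scale; the lower panel gives each miR-30 member as a point with its SE (thick bar) and 95% interval (thin bar) from limma. The interval of miR-30a starts at 0.071 and those of the other 4 members include 0. The intervals are not adjusted for the 231 tests, and no member passed after adjustment. Under other scalings the point of miR-30e lies below 0 (-0.057 with the scaling over all probes) and those of miR-30b and miR-30d lie above it (0.14 and 0.17 with no scaling).

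The choice of scaling moves all microRNAs together. The median over all tested microRNAs went to 0.19 with no scaling between arrays and to -0.16 with the scaling over all probes. Read against that median, miR-30a, miR-30c and miR-30e lay above it in 14 of 14 alternative ways of processing, miR-30b in 2 of 14 and miR-30d in 0 of 14. All of these reuse the same arrays, so the counts are not independent support. A changed variance model or a replicate block cannot move a difference, and subtracting the median takes out most of what a scaling changes. Relative to the median, miR-30a ranged from 0.20 to 0.43, miR-30c from 0.12 to 0.63, miR-30e from 0.048 to 0.14, miR-30b from -0.16 to 0.067 and miR-30d from -0.10 to -0.0018.

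**Figure D3:**
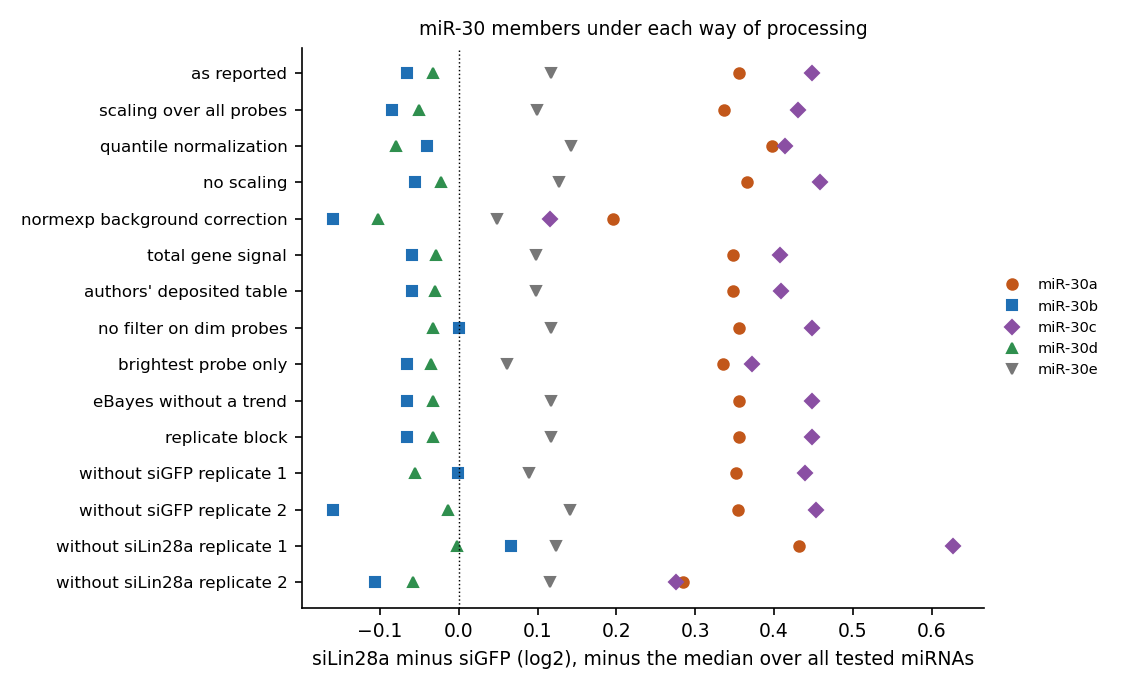
Difference of each miR-30 member between siLin28a and siGFP on the log2 scale, less the median over all tested microRNAs, as reported (top) and under each of 14 alternatives. miR-30a and miR-30c lie to the right of the other 3 members as reported and under all 14 alternatives, from 0.20 to 0.43 and from 0.12 to 0.63, and the lowest values of both come with normexp. The alternatives reuse the same arrays, and a changed variance model or a replicate block moves no point.

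The probes of a member sit on 1 target and differ in length by single bases, so they are repeat readings of 1 microRNA and not replicates. In build mm9, as the files give it, the probes of miR-30a have targets on chromosome 1 that end at 23279134 and start at 23279118, 23279119 or 23279120. The target of miR-30c on chromosome 1 runs from 23298558 or 23298559 to 23298575, at the Mir30c-2 locus, but Mir30c-1 gives the same mature sequence. The miR-30e target lies on chromosome 4 from 120445265 to 120445281, that of miR-30b on chromosome 15 from 68169031 to 68169047, and that of miR-30d on chromosome 15 from 68172819 to 68172832. Exon and intron annotation of mm9 was not used here.

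Of 11 member probes, 10 were kept. The probe left out, with a target 16 bases long, reads miR-30b and had mean spot signals of 20.9 and 21.3 for siGFP and 19.4 and 28.2 for siLin28a, and on 1 array of each group fewer than 50% of its spots were well above background. Among the 10 kept probes, 7 were higher on both siLin28a arrays and 3 overlapped, beside 31.4% of all 477 kept probes that were higher in that way. The 7 were every kept probe of miR-30a, miR-30c and miR-30e.

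The 3 miR-30a probes gave like values, with log2 differences of 0.42, 0.32 and 0.34 for targets of 15, 16 and 17 bases. Their mean spot signals for the target of 17 bases, over 6 spots an array, were 179 and 172 for siGFP against 237 and 274 for siLin28a. The probe for 16 bases had a wide spread over spots on siGFP replicate 2, at 122 ± 46.2 (SD over 7 spots), beside 119 ± 10.4 (SD over 7 spots) on siGFP replicate 1. The 2 miR-30c probes differed by 0.53 for a target of 17 bases and 0.37 for one of 18. For the shorter of these the mean spot signals were 34.2 and 35.6 against 48.2 and 69.2, and for the longer 139 and 134 against 179 and 232, so both showed siLin28a replicate 2 as the brightest array. The miR-30e probes gave 0.17 and 0.062 for targets of 16 and 17 bases. The miR-30d probes gave -0.029 and -0.035, and the kept miR-30b probe gave -0.066.

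**Figure D4:**
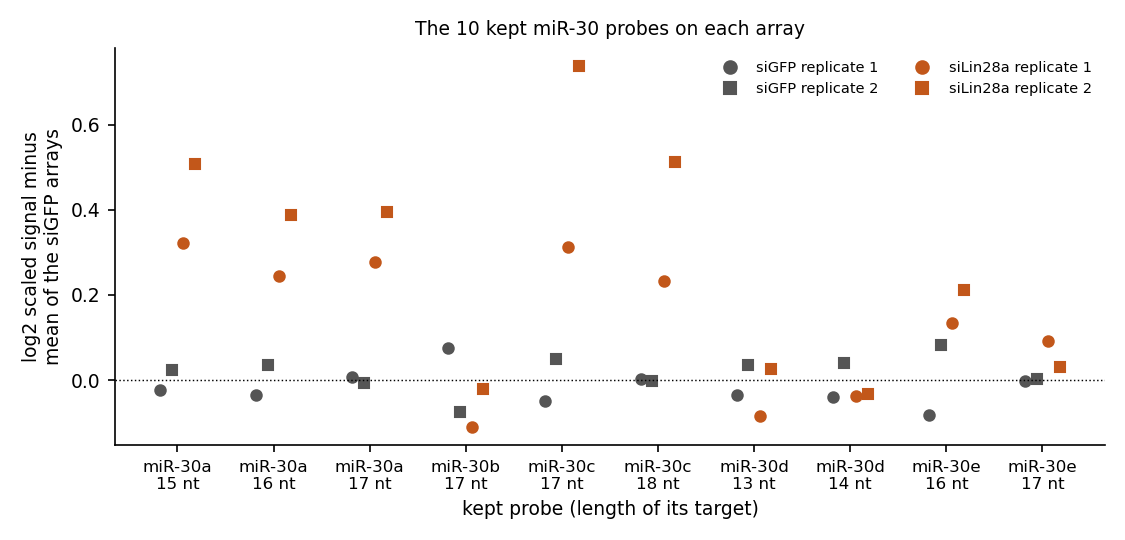
Scaled log2 signal of each of the 10 kept miR-30 probes on the 4 arrays, less the mean of the siGFP arrays for that probe; circles are replicate 1 and squares replicate 2, and the length of the target stands under each name. The siLin28a points of the 5 probes for miR-30a and miR-30c stand clear of the siGFP points, with siLin28a replicate 2 on top, while those of miR-30b and miR-30d mix with them.

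A difference between 2 members within an array does not change with the scaling by a percentile. For the hairpins on chromosome 1, miR-30a minus miR-30c was 0.73 and 0.72 for siGFP against 0.73 and 0.52 for siLin28a on the log2 scale. The groups overlapped and differed by -0.093 (exact permutation test, two-sided p = 1). For chromosome 15, miR-30b minus miR-30d was 0.63 and 0.40 against 0.46 and 0.50, a difference of -0.033 (exact permutation test, two-sided p = 1). For these 2 pairs the ratio of the members overlapped between the groups, and for the third pair of neighbouring hairpins, Mir30c-1 and Mir30e, it did not. Lack of overlap was common, at 58.4% of all 26565 pairs of tested microRNAs, so it does not set that pair apart. miR-30c is also made from Mir30c-1 on chromosome 4, so miR-30a minus miR-30c does not read chromosome 1 alone.

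For the hairpins in the Nfyc span, miR-30e minus miR-30c was 0.86 and 0.89 for siGFP against 0.72 and 0.37 for siLin28a. Here the groups did not overlap, and the difference was -0.33 on the log2 scale (exact permutation test, two-sided p = 0.333, the smallest that 2 against 2 arrays can give). After adjustment over these 3 contrasts the p was 1 (Benjamini-Hochberg, exact permutation test), and the design could not have reached 0.05. The value stayed below 0 in 14 of 14 alternatives, from -0.50 to -0.068. That count is not independent support, since every alternative reuses the same arrays. The scaling over all probes, no scaling, no filter on dim probes, the changed variance model and the replicate block left the value at -0.33. These settings add nothing to the count. miR-30c also comes from chromosome 1, so this contrast is not a reading of 1 transcript.

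miR-30a and miR-30e, which differ at a single base, could be set side by side in the same way, a pair chosen after its values were seen. miR-30a minus miR-30e was -0.13 and -0.18 for siGFP against 0.015 and 0.15 for siLin28a on the log2 scale, with no overlap. Over all 10 pairs of members, 8 did not overlap between the groups, and 58.4% of all 26565 pairs of tested microRNAs did not either. The 2 pairs that overlapped were miR-30a with miR-30c and miR-30b with miR-30d.

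**Figure D5:**
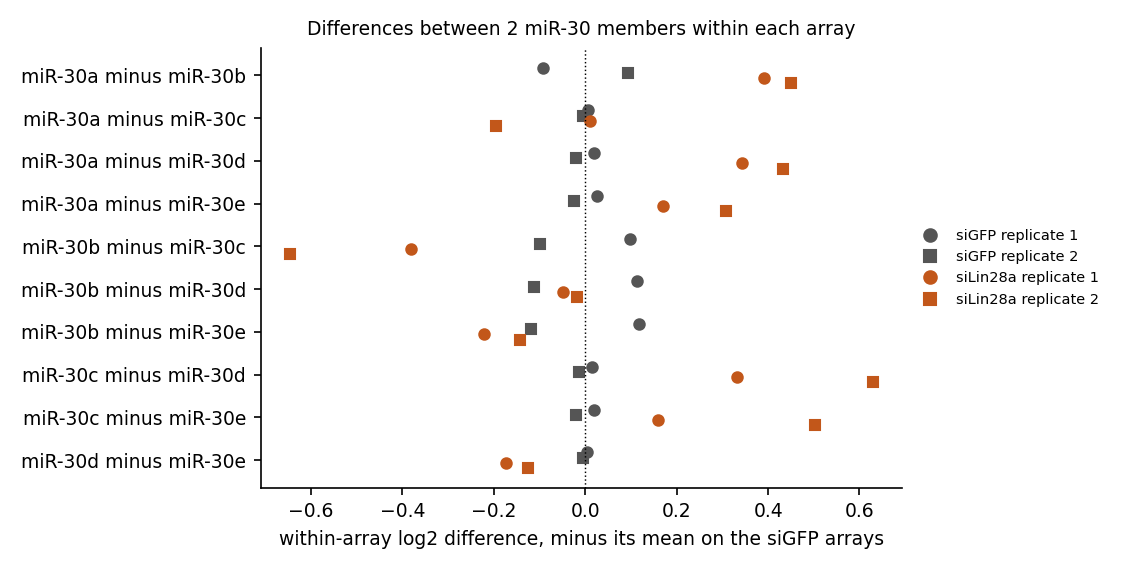
Log2 difference between 2 miR-30 members within each array, less its mean on the siGFP arrays, for all 10 pairs; circles are replicate 1 and squares replicate 2. The siLin28a points of miR-30a minus miR-30c and of miR-30b minus miR-30d reach into the siGFP points, and those of the other 8 pairs lie to 1 side.

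The opposite strands of the hairpins, which are usually degraded, were dim. miR-30a* had total gene signals of 6.48 and 6.31 for siGFP and 6.54 and 12.2 for siLin28a and was detected on no array. miR-30b* lay between -0.20 and 1.98 and was detected on no array. miR-30e* had 11.2 and 10.1 against 12.6 and 15.0, and it was detected on siLin28a replicate 2 alone. miR-30c-2*, from chromosome 1, had 10.1 and 11.3 against 10.4 and 14.2 and was detected on replicate 2 of each group. Each of these strands stayed below the filter, so none was tested. No probe on the array carried the name miR-30d*.

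miR-30c-1*, the opposite strand of the hairpin in the Nfyc span, was the opposite strand that could be tested, and it rested on 1 of its 4 probes. That probe, the longest with a target of 19 bases, had mean spot signals of 33.8 and 37.2 for siGFP and 34.5 and 24.3 for siLin28a, the last of which was set to the floor. The scaled log2 levels were -2.74 and -2.56 for siGFP against -2.85 and -3.40 for siLin28a. The difference of -0.47 (SE 0.22, limma adjusted p = 0.266, n = 2 per group) did not pass. The groups did not overlap, and 30.7% of the 231 tested microRNAs were lower in that way. The total gene signals of miR-30c-1* overlapped, at 9.47 and 11.9 against 12.6 and 6.11. miR-384-5p, which carries the same seed on the X chromosome, had total gene signals from -6.12 to -2.60 and was detected on no array.

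Other microRNAs reported to target the Lin28 mRNA were let-7 with miR-98, miR-9 and miR-125. Of the 9 names of let-7 and miR-98 on the array, 5 were tested and 2, let-7a and let-7f, were called higher. Both lay at the floor on the 2 siGFP arrays and were kept only because of their siLin28a signals, so their siGFP spread was 0 and their test was open to a rise only. The summed total gene signal of the 9 was 45.5 to 49.9 for siGFP and 339 to 346 for siLin28a. miR-9 was detected on no array, with total gene signals between 3.49 and 5.06, and miR-125b-5p was not detected either. miR-125a-5p had 21.8 and 25.8 for siGFP and 40.7 and 73.6 for siLin28a, a scaled log2 difference of 0.95 (SE 0.27, limma adjusted p = 0.166, n = 2 per group). That difference rested on 1 kept probe. Its scaled log2 levels were -3.28 and -3.10 for siGFP, near the floor of -3.40, against -2.59 and -1.90 for siLin28a. The 5 miR-30 members summed to 622 to 648 for siGFP and 780 to 924 for siLin28a, without scaling between arrays.

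The microRNAs outside the family whose centred levels over the 4 arrays lay nearest to the mean of the 5 members were miR-140*, miR-106b* and miR-872. Their root mean square distances on the log2 scale were 0.022, 0.032 and 0.034, against a median of 0.19 over the 226 other tested microRNAs. The members themselves lay at 0.055 for miR-30e, 0.096 for miR-30a, 0.10 for miR-30d, 0.13 for miR-30b and 0.16 for miR-30c, farther from their own mean than these 3. Picked as the smallest of 226 distances, these 3 do not show how alike the members are. miR-872 was at the floor on both siGFP arrays.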

How the data were processed

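The deposited scanner files hold intensity values from Agilent's Feature Extraction software (9.5.1.1 per the file headers, 9.5.3.1 per the submitters' processing notes), from 100 ng of RNA per the labels' protocols. The processed intensity had a background surface subtracted within the array and was not scaled between arrays. The authors' deposited value table holds the total gene signal, with values at or below 0 written as 0.

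Non-control spots not marked as outliers (3.21% to 4.32% were) were averaged over 1712 probes. A probe was well above background when at least 50% of its spots were. Each array was divided by its 75th percentile over 425 probes that passed this on every array (226 and 220 for siGFP, 248 and 265 for siLin28a), floored at 0.0948 and taken to log2. Probes that passed it on each array of at least 1 group were kept (477 probes, 231 microRNAs) and averaged per microRNA. The comparison used limma 3.58.1 (R 4.3.3): eBayes with a trend, two-sided, Benjamini-Hochberg over 231 microRNAs, threshold 0.05, with 2 residual and 1.64 prior degrees of freedom. Scaling, background correction, probe summary, filter, variance model, pairing and left-out arrays were varied.

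The members and lists were chosen with earlier results of these data known. The text names the 5 members, microRNAs of the same seed, the opposite strands, the 3 nearest profiles and the LIN28 repressors.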

Additional observations from a re-analysis of the deposited data

How the results depend on the processing

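With 2 arrays a group, differences as small as those of miR-30b and miR-30d could not be told from 0. With normexp, which adds an offset of 50, miR-30a, miR-30c and miR-30e lay nearer to 0 than as reported, and miR-30b (-0.21) and miR-30d (-0.16) lay farther from it. None of the 5 members was called under any of the 14 alternatives. miR-30a and miR-30c stayed above 0 in all 14, with limma adjusted p from 0.107 to 0.536 and from 0.0519 to 0.734. With the scaling over all probes miR-30e and the median of the members were at -0.057 (log2 throughout) and 0 microRNAs were called higher. With normexp the same 3 values were -0.0052, -0.0052 and 0. With no scaling miR-30b, miR-30d and the median were at 0.14, 0.17 and 0.32. The median was 0.078 with quantile normalization, 0.035 with the total gene signal or the authors' deposited table, where 8 microRNAs were called higher, and 0.062 with the brightest probe only. With no filter on dim probes 40 were called higher and 8 lower, and miR-30b was at 0.00084. The cause of these shifts was not tested.

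With 1 array left out, the lone array of a group is assumed to vary like the others. Calls higher then ranged from 0 to 13, miR-30a from 0.28 to 0.43, miR-30b from -0.12 to 0.067, miR-30c from 0.27 to 0.63, miR-30d from -0.067 to 0.023, miR-30e from 0.077 to 0.18 and the median from 0.077 to 0.18. With the replicate number as a block, no call changed among the members, and the adjusted p of miR-30a and of miR-30c was 0.107. Same-numbered arrays deviated together (correlation 0.71 across microRNAs), but nothing in the labels says that the numbers mark a shared batch. A slide block was not run, since all arrays lay on 1 slide.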
